A study of Mus musculus with 24 samples.

Results

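Gene expression 72 h after a single injection of doxorubicin was compared with that after phosphate-buffered saline (PBS) in cardiomyocytes isolated from wild-type mouse hearts. The comparison rests on 6 of the 24 one-colour Agilent arrays of the series, taken by their titles: wild-type PBS at 72 h, replicates 2, 3 and 4, and wild-type doxorubicin at 72 h, replicates 2, 3 and 4. The mice were 129SvEv/C57BL/6, labelled as male and 6 weeks old, and doxorubicin was given at 25 mg/kg intraperitoneally. Live cardiomyocytes were collected on a Langendorff apparatus, which perfuses the excised heart through its aorta. The other arrays of 72 h, used here to share the estimate of spread, came from mice of the same background in which Top2b was deleted in cardiomyocytes, given PBS or doxorubicin, with 3 arrays each. The Cre line behind that deletion, and whether wild-type mice carried it, are not given in the sources used here. Whether each array came from its own animal is not stated in the labels, so p-values measure the spread between these samples only, which may be technical.

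Doxorubicin is an anthracycline that intercalates into DNA and traps type II topoisomerases on cut DNA, which leaves double-strand breaks. Proliferating cells rely on topoisomerase II alpha, encoded by Top2a, whereas adult cardiomyocytes express mainly topoisomerase II beta, encoded by Top2b. DNA breaks activate p53, and in heart muscle anthracyclines are known for dose-dependent injury in which mitochondria, iron handling and oxidative stress have all been studied.

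A level is the log2 processed signal relative to the array's own 75th percentile, which lay between 146 and 281 signal units on these 6 arrays. The share of spots well above background ran from 45.3% to 52.6%, and 0 spots were saturated. Levels of different probes are not compared with each other. The 6 arrays differed in ways their labels do not give. Ddx3y, a Y-linked gene, was above background on 1 of the 6 arrays, PBS replicate 4, at a level of 2.44 against -6.12 to -5.22 on the rest, and Xist, which is transcribed from the inactive X chromosome, was below background on that array only. The Y-linked Uty and Kdm5d were likewise detected on PBS replicate 4 alone, so the other arrays conflict with their label of male. Eif2s3y, also Y-linked, read 3.31 there and -4.26 to -1.36 on the rest, below background only on doxorubicin replicate 3. The cause was not tested. A probe for Esr1, which encodes oestrogen receptor alpha, read 8.41 and 8.58 on PBS replicates 2 and 3 and -6.18 on PBS replicate 4, and it read 6.62, -2.06 and -4.37 on doxorubicin replicates 2, 3 and 4. The other Esr1 probes were below background on every array of 72 h, at -6.32 to -4.39, so this signal is that of 1 probe. An array counts as carrying it where the probe lay above the array's 75th percentile. Doxorubicin replicate 3, although above background, therefore counts as without it. The ligand-binding domain of this receptor is the switch in tamoxifen-inducible Cre recombinases. All 6 Top2b-deleted arrays of 72 h carried the Esr1 signal, between 5.24 and 7.10. PBS replicates 2 and 3 were the closest wild-type pair: the SD of their log2 differences over genes was 0.40, against 0.78 and 0.83 between each of them and PBS replicate 4 and 0.58 to 0.72 between doxorubicin arrays. Replicates 2 and 3 of every group were hybridised on 1 slide and replicate 4 on another, so PBS replicate 4 also differs from the other PBS arrays by its slide.

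**Figure D1:**
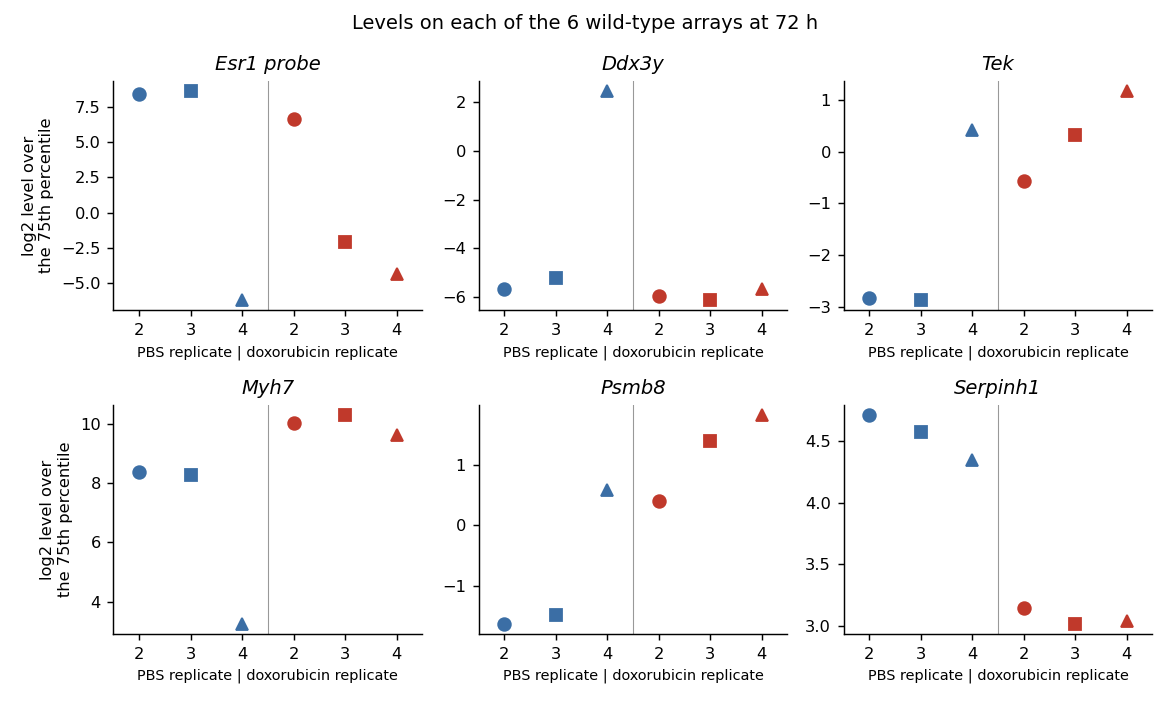
Log2 level over the array's 75th percentile (vertical axes, a separate range in each panel) on each wild-type array of 72 h, PBS in blue and doxorubicin in red, with the replicate number on the horizontal axis. PBS replicate 4 stands apart for the Esr1 probe (-6.18), Ddx3y (2.44) and Myh7 (3.26), and for Tek it lies inside the doxorubicin range, whereas the 3 PBS levels of Serpinh1 all lie above the 3 doxorubicin levels.

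With the slide as a block, 2641 of 19670 genes passed an adjusted p of 0.05 (limma, Benjamini-Hochberg), which is 13.4% of those tested: 1090 were higher after doxorubicin (5.54%) and 1551 lower (7.89%). The calls included 768 rises and 310 falls of at least 2-fold, and 193 rises and 31 falls of at least 4-fold. The median over all genes was -0.08 on the log2 scale. When each array was scaled to its median instead, 861 genes were higher and 2489 lower, with an all-gene median of -0.18. Levels of the 2 groups did not overlap for 5074 of 19587 genes with a value on all 6 arrays (25.9%). Of the called rises, 366 did overlap, and in 338 of those PBS replicate 4 was the highest PBS array. These counts move with the block and with single arrays. Without the slide block 530 genes were called, all of them among the 2641, and with the wild-type arrays alone 162 were. Leaving out PBS replicate 2 gave 125 calls, PBS replicate 3 gave 116, doxorubicin replicate 3 gave 503 and doxorubicin replicate 4 gave 1536, whereas leaving out PBS replicate 4 gave 2516. Leaving out replicate 3 of every group gave 0 calls in limma, with 3587 genes at an unadjusted p under 0.05. With the Esr1 probe signal as a covariate, an alternative chosen after the data were seen, 963 genes were called, 480 higher and 483 lower. The gene with the smallest p, named after its values were seen, was Spsb2, an adaptor of a ubiquitin ligase: its levels were -0.42, -0.59 and -0.40 on the PBS arrays and 1.22, 1.40 and 1.24 after doxorubicin, a rise of 1.76 (adjusted p = 0.00192).

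**Figure D2:**
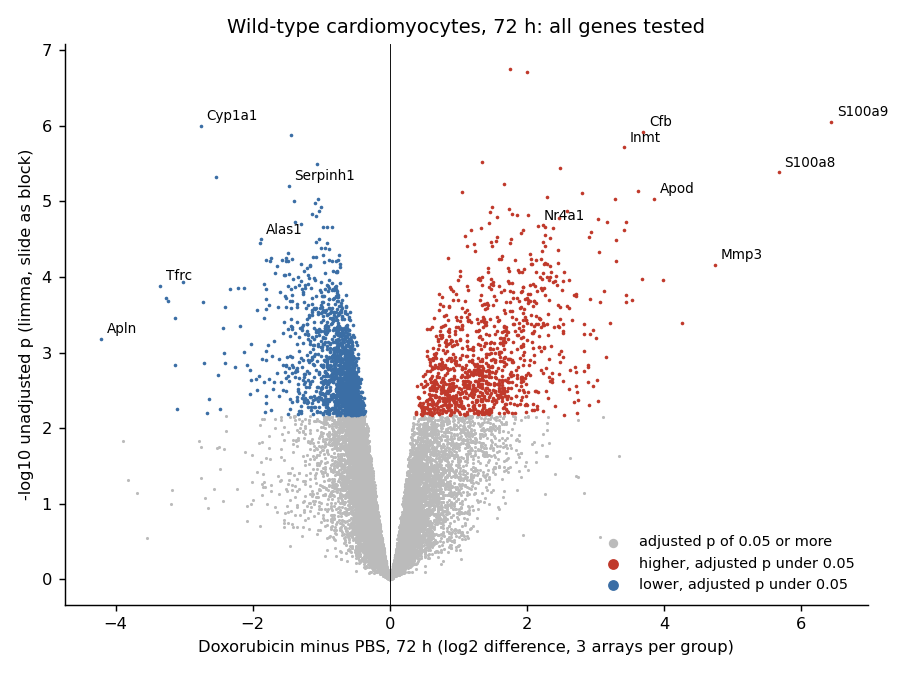
Each point is 1 of the genes tested, with the log2 difference between doxorubicin and PBS at 72 h on the horizontal axis and -log10 of limma's unadjusted p on the vertical axis. The 1090 called rises (red) reach larger differences than the 1551 called falls (blue), which crowd close to 0.

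Of 219 genes named by rule, 160 had an adjusted p still under 0.05 after rounding, and Mdm2 passed only before rounding. Of the 160, 70 were also called without the slide block, 101 with the Esr1 covariate and 22 with each of the 6 arrays left out in turn. Only 14 passed all of these: the rises of S100a8, S100a9, Cfb, C3, C4b, Apod, Inmt, Fmo2, Plk2 and Nr4a1, and the falls of Serpinh1, Alas1, Cyp1a1 and Mrps2. They span secreted defence proteins, a p53 target, an immediate early gene, collagen folding, haem synthesis and the mitochondrial ribosome, and each is given with its group. Of the 14, S100a8 and Cfb were below background on every PBS array, S100a9 was above it on 1 of 3, and Cyp1a1 was below it on every doxorubicin array. They were tested because a probe needed detection in only some group. A filter asking for detection on all 12 arrays, not among the settings counted here, leaves them and Inmt out. In what follows, values on the PBS arrays and on the doxorubicin arrays are given in the order of replicates 2, 3 and 4, and a difference is doxorubicin minus PBS in log2 units with its SE, from 3 arrays per group. Single arrays move most other calls in the same way as they move the total, so most list counts are followed by their values under settings that moved them. These are chiefly without the slide block, with the Esr1 covariate, or without PBS replicate 2, PBS replicate 3 or doxorubicin replicate 3. A count printed without such values is not thereby stable. Each list count is to be read beside the shares over all genes, 5.54% higher and 7.89% lower.

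The largest rises among genes measured on every array with no overlap between groups, of which 14 are given, were led by secreted and detoxifying proteins. Apod, a lipocalin that carries small lipids (probe at chr16:31297206-31297265, mm9), read -0.58, -0.80 and -0.78 in PBS and 2.0, 4.11 and 3.32 after doxorubicin. The PBS arrays lay together and every doxorubicin array was far above them, a difference of 3.86 ± 0.46 or 14.6-fold (adjusted p = 0.00884). Inmt, an N-methyltransferase of indole amines, read -2.29, -2.22 and -1.34 in PBS and 0.51, 1.09 and 2.81 after doxorubicin, a difference of 3.42 ± 0.34 (adjusted p = 0.00536). Fmo2, a flavin-containing monooxygenase, read -1.20, -1.14 and 0.44 in PBS and 1.68, 3.11 and 2.82 after doxorubicin, an 8.99-fold rise (adjusted p = 0.0089). Other detoxifying enzymes in this set were Ephx1, an epoxide hydrolase (8.29-fold), Sult1a1, a sulfotransferase (7.09-fold), and Cyp26b1, which degrades retinoic acid (7.14-fold). For Ephx1 and Sult1a1, PBS replicate 4 was the highest PBS array, at 3.41 and 3.50. That it lay below every doxorubicin array follows from choosing genes without overlap. Irs2, an adaptor that passes the insulin signal on from its receptor, read 1.79, 1.72 and 1.79 in PBS and 4.62, 4.82 and 4.01 after doxorubicin, a 6.56-fold rise (adjusted p = 0.0133) with narrow spread in both groups. Dpep1, a membrane dipeptidase that is also in the fibroblast marker list, rose 7.03-fold. The rest of the 14 were C4b and C3, described with the acute-phase genes, Apold1 (7.56-fold), Slc26a10 (6.61-fold), and the kallikreins Klk1b26 (8.17-fold) and Egfbp2 (6.75-fold). The last pair are near-identical paralogs whose probes overlap in position, so their signals cannot be assigned to 1 of them. The call was lost in 14 of 24 other settings for Klk1b26 and in 16 of 24 for Egfbp2.

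The 15 largest falls, chosen the same way, held a peptide hormone, the transferrin receptor and several receptors of the cell surface. Apln encodes apelin, a peptide that strengthens cardiac contraction and dilates vessels (probe at chrX:45378593-45378652, mm9). Its levels were 1.03, 0.91 and 1.92 in PBS and -2.13, -3.46 and -3.19 after doxorubicin, so that doxorubicin arrays held 5.4% of the PBS level (difference -4.21 ± 0.86, adjusted p = 0.0196). Tfrc, the receptor through which cells import transferrin-bound iron, read 1.44, 1.32 and 1.95 in PBS and -1.74, -2.17 and -1.43 after doxorubicin, which is 9.81% of PBS (adjusted p = 0.0128). Every array of each group stood apart from the other group by more than 2 log2 units for these genes. Rtn4r, the Nogo receptor, fell by 3.23 on the log2 scale and Lingo3 fell to 12.4% of PBS. The ephrin system was represented by the receptor Ephb1 (15.8% of PBS) and the ligand Efnb3, which read 4.32, 4.35 and 4.26 in PBS and 3.34, 0.93 and 2.41 after doxorubicin (23.6%). The Ephb1 call was lost in 19 of 25 other settings, over which its difference ran from -3.61 to -0.95. The integrin subunits Itgb6 (16.0%) and Itga9 (21.9%), the inositol kinase Ip6k3 (19.0%), Igsf1 (19.9%), Tmem35 (21.6%), the homeobox gene Cux2 (22.8%), the muscle protease-like gene Ky (22.8%) and Utf1 (24.5%) also fell. Ddah1, which degrades an endogenous inhibitor of nitric oxide synthases, fell to 20.9%. Every one of these falls lost its call under some other setting. The loss came in 15 of 25 settings for Itgb6 and Ky, and in 13 for Ddah1 and Efnb3.

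**Figure D3:**
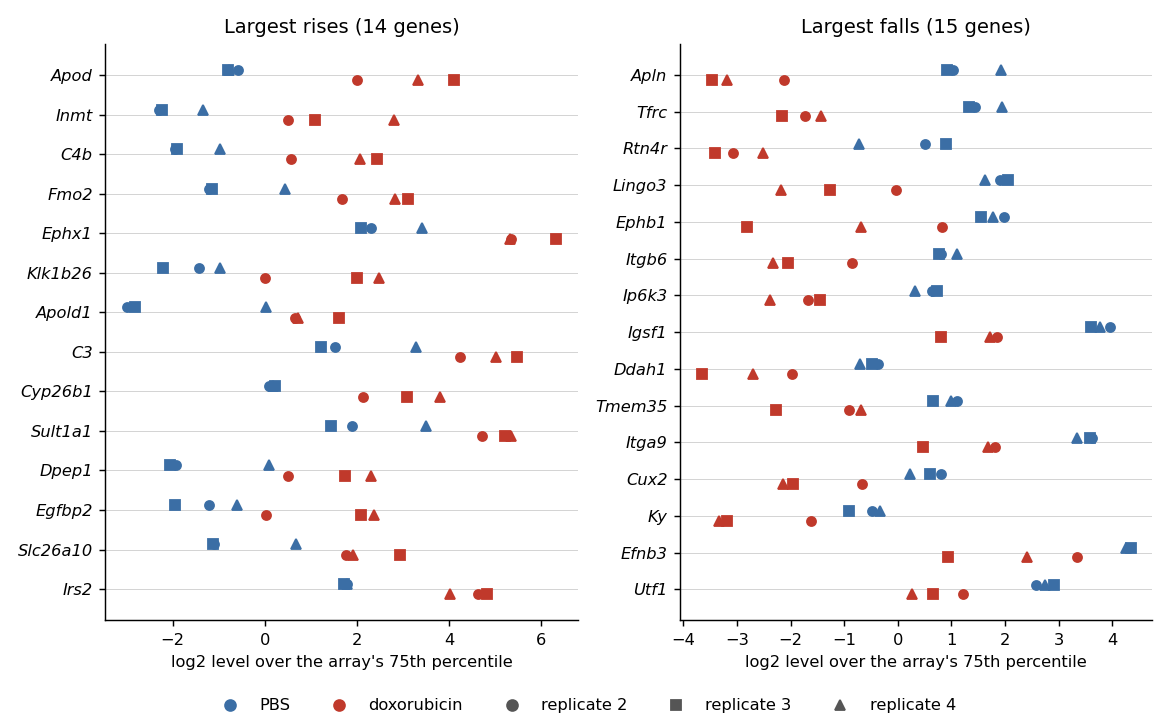
Log2 level over the array's 75th percentile (horizontal axis) of 14 of the largest rises (left) and the 15 largest falls (right), PBS in blue and doxorubicin in red, with the marker shape giving the replicate. The rule that chose these genes asks for no overlap, and PBS replicate 4 (blue triangle) lies nearest the doxorubicin arrays for many rises, such as Apold1 at 0.02.

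Among 33 measured p53 targets, 13 rose and 2 fell, with a median of 0.30, beside 5.54% and 7.89% of all genes. Plk2, a stress-responsive polo-like kinase, read -1.14, -1.29 and -1.38 in PBS and 0.16, 0.62 and 0.14 after doxorubicin. The groups were well separated, and the rise of 1.57 ± 0.22 was 2.98-fold (adjusted p = 0.00985). Cdkn1a, which encodes the cyclin-dependent kinase inhibitor p21, read 0.44, 0.85 and 1.55 in PBS and 2.17, 3.37 and 3.23 after doxorubicin, a 3.93-fold rise (adjusted p = 0.0161). Btg2, an antiproliferative gene, rose 2.12-fold and Trp53inp1, a stress-induced partner of p53, rose 2.43-fold (from -0.31, -0.55 and 0.79 to 0.81, 1.27 and 1.68). Of the BH3-only genes that p53 induces, Bbc3, which encodes PUMA, rose 1.67-fold, from -0.63, -0.95 and -0.78 to 0.07, -0.07 and -0.14. Gadd45a, a DNA damage-inducible gene, moved the other way: 1.27, 0.90 and 1.25 in PBS against 0.17, -0.13 and 0.40 after doxorubicin, 50.1% of PBS (adjusted p = 0.0142). Mdm2, the ubiquitin ligase of p53, stood at 4.95, 4.73 and 4.44 in PBS and 4.40, 4.27 and 4.19 after doxorubicin. This fall of -0.42 ± 0.12 was called, with an adjusted p just under the threshold that rounds to 0.05, and the call was lost in 17 of 25 other settings. Bax read 2.12, 1.92 and 1.98 against 2.46, 2.30 and 2.15 (difference 0.30, adjusted p = 0.106), Gdf15 differed by 0.82 ± 0.54 (adjusted p = 0.33) and Trp53 itself by -0.14 ± 0.36 (adjusted p = 0.825). The 13 rises became 6 without the slide block, 8 with the Esr1 covariate, 2 without PBS replicate 2, 3 without PBS replicate 3 and 5 without doxorubicin replicate 3.

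The interferon response list had 22 of 35 measured members rise and 0 fall, with a median of 1.18. Interferon-stimulated genes are switched on by STAT and IRF factors that bind a short DNA element with repeated GAAA. That element was searched as GAAA, any 2 bases and GAAA, on both strands (on the other strand it reads TTTC, any 2 bases and TTTC), in the 250 bases before the start of each gene (RefSeq promoters, GRCm38.p6). It was found for 14 of 28 measured members with a promoter in that table (50%), for 9 of 18 called members (50%) and for 936 of 27025 genes in all (3.46%). A match describes letters and is not shown to be bound here. The promoters of the 4 called members with the smallest p among those that hold it are printed because they show the element beside genes whose rise is described next, with matches in capitals.
Ifit1 promoter, chr19:34640639-34640888, + strand: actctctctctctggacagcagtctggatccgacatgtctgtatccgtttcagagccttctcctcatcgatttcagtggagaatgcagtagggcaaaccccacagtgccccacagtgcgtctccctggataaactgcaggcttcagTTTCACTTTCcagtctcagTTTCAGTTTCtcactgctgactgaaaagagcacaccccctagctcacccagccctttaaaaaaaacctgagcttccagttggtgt
Ifit3 promoter, chr19:34583279-34583528, + strand: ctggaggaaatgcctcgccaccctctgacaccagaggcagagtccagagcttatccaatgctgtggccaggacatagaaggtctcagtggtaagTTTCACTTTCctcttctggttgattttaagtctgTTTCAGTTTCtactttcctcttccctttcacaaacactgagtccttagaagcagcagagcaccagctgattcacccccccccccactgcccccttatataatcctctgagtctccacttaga
Gbp2 promoter, chr3:142620413-142620662, + strand: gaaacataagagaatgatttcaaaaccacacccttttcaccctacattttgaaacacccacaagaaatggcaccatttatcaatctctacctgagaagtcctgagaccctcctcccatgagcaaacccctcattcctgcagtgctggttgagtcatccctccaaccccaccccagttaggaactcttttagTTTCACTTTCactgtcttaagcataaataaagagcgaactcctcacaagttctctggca
B2m promoter, chr2:122147437-122147686, + strand: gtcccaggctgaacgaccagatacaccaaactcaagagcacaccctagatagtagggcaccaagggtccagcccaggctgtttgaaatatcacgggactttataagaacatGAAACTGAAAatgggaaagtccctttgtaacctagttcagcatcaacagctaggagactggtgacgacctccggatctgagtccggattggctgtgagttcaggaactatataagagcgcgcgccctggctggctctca

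Ifit1, whose product binds foreign RNA caps, read -2.35, -2.86 and -2.43 in PBS and -1.48, -1.17 and -0.54 after doxorubicin. No PBS array reached a doxorubicin array, and the difference was 1.48 ± 0.24 or 2.79-fold (adjusted p = 0.0128). Ifit3 read -1.23, -1.59 and -0.79 against -0.10, 0.69 and 1.53, a 3.75-fold rise, and Ifit2 rose 3.17-fold. In the Ifit1 promoter the matches begin 104 and 85 bases before the start, and in that of Ifit3 156 and 122 bases before it. For the genes of antigen presentation the groups overlapped. Psmb8, a subunit of the immunoproteasome, read -1.62, -1.47 and 0.59 in PBS and 0.40, 1.39 and 1.82 after doxorubicin, so that PBS replicate 4 lay above doxorubicin replicate 2 (difference 2.04 ± 0.33, adjusted p = 0.0128). Gbp2, an interferon-induced GTPase, read -1.81, -1.52 and 0.91 against 0.39, 1.14 and 1.71, and B2m, the light chain of class I histocompatibility molecules, read 3.19, 3.05 and 4.55 against 4.18, 5.35 and 5.95. Both were named after their values were seen, for their promoters, and each overlapped through PBS replicate 4. The median of the list was 0.98, 1.65 and 0.75 in the pairs of replicates 2, 3 and 4, and 13 of its members did not overlap upwards, beside 9.06% of all genes. The 22 rises were 22 without PBS replicate 4 and 15 with the Esr1 covariate, but 3 without the slide block, 1 without PBS replicate 2, 0 without PBS replicate 3 and 10 without doxorubicin replicate 3.

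Of 22 measured cytokine and acute-phase genes, 12 rose and 0 fell, with a median of 1.65. Its members with the smallest adjusted p included complement genes. Cfb, factor B of the alternative complement pathway, read -5.61, -5.17 and -3.86 in PBS, below background on all 3 arrays, and -2.12, -0.73 and -0.69 after doxorubicin. Where a group was not well above background on any array, the dim group's level is only a bound, set per array at the higher of the probe's own signal and the dimmest signal that still counted as detected on that array, and Cfb was at least 5.04-fold higher (adjusted p = 0.00432). C3, the central complement component, read 1.52, 1.21 and 3.29 against 4.24, 5.48 and 5.02, a 7.52-fold rise (adjusted p = 0.00985). C4b, of the classical pathway and not in the list, read -1.94, -1.90 and -0.97 against 0.56, 2.44 and 2.06, a 9.77-fold rise. Nfkbia, the inhibitor of NF-kappaB that NF-kappaB itself induces, rose 2.52-fold, from 3.09, 2.89 and 4.07 to 4.45, 4.59 and 5.0. Osmr, the receptor subunit for oncostatin M, rose 5.32-fold. Serpina3g, a serine protease inhibitor, was below background on every PBS array and at least 3.78-fold higher, and Fetub, a fetuin outside the list, was at least 4.43-fold higher. The 12 rises were 3 without the slide block, 7 with the Esr1 covariate, 3 without either PBS replicate 2 or 3 and 6 without doxorubicin replicate 3.

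Markers of other cells moved with these genes. In isolated cells, more RNA of a cell type may come from more such cells or from more RNA per cell, which cannot be told apart. Of 19 endothelial markers 13 rose and 0 fell (median 1.48), but 1 of the 19 did not overlap upwards, beside 9.06% of all genes. Tek, the angiopoietin receptor, read -2.84, -2.87 and 0.43 in PBS and -0.57, 0.33 and 1.17 after doxorubicin. The summed linear level of the list ran from 125 to 451 in PBS and from 389 to 642 after doxorubicin, where PBS replicate 4 gave the 451. Flt1, a receptor for VEGF, was the member without overlap, at 2.78, 2.60 and 4.26 against 4.79, 5.48 and 4.94. The 13 calls were 0 without the slide block, 5 with the Esr1 covariate, 17 without PBS replicate 4 and 0 without either PBS replicate 2 or 3. Of 19 fibroblast markers 5 rose and 0 fell, but the list was split: its median was 0.29, with 12 differences above 0 and 7 below. Of its members 3 did not overlap upwards and 2 did not overlap downwards. The summed level of the 19 ran from 50 to 147 in PBS and from 116 to 237 after doxorubicin. Among the rises were Dpep1, given above with the largest rises, and Dcn, which encodes decorin. Dcn read 3.87, 3.76 and 5.74 against 5.39, 6.39 and 6.90. These 5 calls were 0 without the slide block and 1 with the Esr1 covariate, without either PBS replicate 2 or 3, or without doxorubicin replicate 3. The part of these cells in the interferon and acute-phase results was not tested.

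Of 7 measured neutrophil markers 4 rose and 0 fell. The 4 rises were 3 without the slide block or with the Esr1 covariate, and 2 without PBS replicate 2, PBS replicate 3 or doxorubicin replicate 3. A filter asking for detection on all 12 arrays left 3 of the markers, with 0 calls and a median of -0.06. S100a9, a subunit of the calcium-binding protein calprotectin, read -5.90, -5.44 and -3.17 in PBS and 0.04, 2.18 and 2.57 after doxorubicin, with 1 of the 3 PBS arrays above background (adjusted p = 0.00432). No size is given for it, since the other PBS levels were not measured above background. Its partner S100a8 was below background on every PBS array, at -5.78, -5.34 and -5.67, and read -1.68, 0.83 and 1.09 after doxorubicin, at least 12.4-fold higher (adjusted p = 0.00736). Retnlg was at least 3.63-fold higher and Ly6g rose 5-fold with overlap. Csf3r, the granulocyte colony-stimulating factor receptor, named after its values were seen, read 7.88, 7.94 and 6.69 against 7.83, 7.47 and 6.87, and the summed level of the 7 measured neutrophil markers, 109 to 253 in PBS and 133 to 235 after doxorubicin, overlapped. Of 17 macrophage markers 1 rose (5.88%, beside 5.54% of all genes), Cd14, the co-receptor for lipopolysaccharide. It was not called without the slide block, with the Esr1 covariate, or without PBS replicate 2 or 3. The summed macrophage level ran from 111 to 177 in PBS and from 56.7 to 196 after doxorubicin. Lymphocyte, erythroid, adipocyte, Schwann and mesothelial, and atrial lists had 0 calls among 5, 5, 2, 9 and 7 measured members. Of 14 smooth muscle and pericyte markers 1 rose (Rgs5) and 1 fell (Mcam), each 7.14%, near the share of all genes. The haemoglobin genes Hbb-b1 and Hba-a1 differed by -3.89 ± 1.31 and -2.79 ± 0.94 without passing (adjusted p = 0.0745 and 0.0747). The adipocyte markers Adipoq and Plin1 were not well above background on any of the 6 arrays. All the defining markers of cardiomyocytes, Myh6, Tnnt2, Tnni3, Actc1, Myl2 and Ryr2, were above background on all 6. The summed level of the 14 cardiomyocyte markers was 10600 to 15800 in PBS and 8150 to 11700 after doxorubicin, and 4 of them fell.

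Immediate early genes, transcription factors induced within minutes of a stimulus, were higher 72 h after the injection: 11 of 21 measured rose and 0 fell, with a median of 1.04. Of the 21, 14 did not overlap upwards, beside 9.06% of all genes. Nr4a1, an orphan nuclear receptor, read 4.27, 4.0 and 3.61 in PBS and 6.65, 6.14 and 5.56 after doxorubicin, a rise of 2.16 ± 0.28 or 4.46-fold (adjusted p = 0.0089). Each doxorubicin array was above each PBS array by more than 1 log2 unit. Atf3, a stress-induced repressor, rose 4.69-fold, from 1.48, 1.41 and 0.94 to 4.0, 3.81 and 2.70. Klf2, a factor known for its induction by blood flow in endothelium, rose 3.77-fold, and there PBS replicate 4 was again the highest PBS array at 3.93. Egr2 was below background in PBS and at least 1.53-fold higher (adjusted p = 0.0174). The 11 rises were 3 without the block, 6 with the Esr1 covariate, 1 without either PBS replicate 2 or 3 and 2 without doxorubicin replicate 3. The unfolded protein and integrated stress response list, which shares Atf3, had 5 of 31 rise and 1 fall (median 0.34). Trib3, a pseudokinase induced by ATF4, rose 3.43-fold with overlap, Psat1, of serine synthesis, rose 4.75-fold without overlap, and Fgf21, a hormone released under metabolic stress, was below background on the PBS arrays and at least 2.02-fold higher. These 5 rises were 3 without the block and 0 without either PBS replicate 2 or 3.

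Cardiomyocyte markers, whose part in the mitochondrial results was not tested, had a median of -0.36 (-0.33, -0.90 and -0.11 for replicates 2, 3 and 4), with 13 of 14 below 0. Their 4 falls were 0 without the slide block, with the Esr1 covariate, or without PBS replicate 2, PBS replicate 3 or doxorubicin replicate 3. Among regulators of mitochondrial biogenesis 11 of 29 fell and 0 rose, with a median of -0.37. Ppara, the nuclear receptor of fatty acid oxidation genes, read 5.13, 4.94 and 4.58 in PBS and 4.02, 3.65 and 4.01 after doxorubicin. All 3 doxorubicin arrays were lower, at 50.4% of PBS (difference -0.99 ± 0.17, adjusted p = 0.0139). Its coactivator Ppargc1b read 1.91, 1.81 and 1.13 against 1.02, 0.57 and 0.36, 51.1% of PBS (adjusted p = 0.0163). Ppargc1a, the better-known member of that family, read 5.38, 5.30 and 4.66 against 4.52, 4.21 and 4.96, a difference of -0.55 ± 0.25 with overlap and an adjusted p of 0.16. Sirt3, the main deacetylase of the mitochondrial matrix, fell to 50.3% and Opa1, which fuses the inner membranes, to 66.3%, from 4.23, 4.2 and 4.25 to 3.77, 3.49 and 3.65. The 11 falls were 3 without the slide block, 5 with the Esr1 covariate, 0 without either PBS replicate 2 or 3 and 1 without doxorubicin replicate 3.

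The mitochondrial ribosome, which translates the subunits encoded by mitochondrial DNA, is the longest list and had the largest number of falls: 25 of 76 measured genes fell (32.9%) and 0 rose. The share that fell was 37.9% for the biogenesis regulators, 32.4% for calcium handling and conduction and 30.4% for heat shock proteins. All 76 differences of the mitochondrial ribosome were below 0 (median -0.50), and 56 did not overlap downwards, beside 16.8% of all genes. Mrps2 read 2.07, 2.09 and 2.29 in PBS and 1.40, 1.33 and 1.43 after doxorubicin, 58.9% of PBS (difference -0.76 ± 0.11, adjusted p = 0.0113). Both groups were tight for this gene. Mrpl35 fell to 47.6%, Mrpl19 to 49.0% and Mrpl45 to 46.3%, the last from 5.05, 4.80 and 4.56 to 4.11, 3.32 and 3.64. The factor NRF1 is a known regulator of nuclear genes for mitochondrial proteins, and its site was searched as GCGC, A, any 1 base and GCGC on both strands in the same 250 bases. It was found for 9 of 67 measured members with a promoter (13.4%), 4 of 19 called members (21.1%) and 1144 of 27025 genes (4.23%). The ETS site CCGGAAGT was found for 10 of the 67 (14.9%), for 2 of the 19 called members (10.5%) and for 873 of all genes (3.23%). The called members with the smallest p that hold the NRF1 letters are printed to show where these lie, with matches in capitals.
Mrpl45 promoter, chr11:97315466-97315715, + strand: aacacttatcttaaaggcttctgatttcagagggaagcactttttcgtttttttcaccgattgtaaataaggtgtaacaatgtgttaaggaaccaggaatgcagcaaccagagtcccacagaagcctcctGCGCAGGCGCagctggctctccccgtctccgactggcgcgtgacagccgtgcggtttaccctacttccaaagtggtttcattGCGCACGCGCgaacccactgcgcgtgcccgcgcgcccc
Mrpl12 promoter, chr11:120484387-120484636, + strand: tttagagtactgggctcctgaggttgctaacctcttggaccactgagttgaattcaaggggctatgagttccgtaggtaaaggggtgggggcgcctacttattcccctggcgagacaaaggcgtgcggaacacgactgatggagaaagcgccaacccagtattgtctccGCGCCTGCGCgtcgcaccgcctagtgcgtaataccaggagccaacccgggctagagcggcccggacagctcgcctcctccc

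Mrpl12, named for its promoter, read 6.78, 6.73 and 6.51 in PBS and 6.22, 5.52 and 5.64 after doxorubicin (54.4% of PBS, adjusted p = 0.0246). The 25 falls of the mitochondrial ribosome were 5 without the slide block, 7 with the Esr1 covariate, 1 without either PBS replicate 2 or 3, 3 without doxorubicin replicate 3, 6 without doxorubicin replicate 4 and 45 without doxorubicin replicate 2.

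In the respiratory chain, all 37 measured genes of complex I, the NADH dehydrogenase, had differences below 0 (median -0.41). Of these, 23 did not overlap downwards, beside 16.8% of all genes. Called falls numbered 6 (16.2%, beside 7.89% of all genes). Ndufs8 read 5.76, 5.65 and 5.98 in PBS and 5.17, 4.65 and 5.28 after doxorubicin, 59.0% of PBS (adjusted p = 0.0265). Ndufb2 fell to 57.9%, Ndufs7 to 66.3% and Ndufab1, also the acyl carrier protein of mitochondria, to 52.5%. Ndufa3 differed by -0.37 ± 0.17 (adjusted p = 0.154). Of 35 genes of complexes II to IV and their assembly 7 fell (median -0.37): Cox11, which delivers copper to cytochrome oxidase, from 3.81, 3.47 and 3.65 to 2.91, 2.37 and 2.74 (51.1%), then Sco2 (66.3%), Uqcrc1 (62.9%) and Cox7a1 (58.7%). Sdha, the flavoprotein of complex II, differed by -0.15 ± 0.13 (adjusted p = 0.452). In the 16 genes of ATP synthase 1 fell, Atp5d (67.2%), which is 6.25% beside 7.89% of all genes, at a list median of -0.37, and Atp5a1 differed by -0.33 ± 0.17 (adjusted p = 0.218). The ATP synthase list had 0 falls without the slide block, with the Esr1 covariate, or without PBS replicate 2 or 3, and 4 without PBS replicate 4. The 7 falls of complexes II to IV were 2 without the slide block, with the Esr1 covariate or without doxorubicin replicate 3, and 0 without either PBS replicate 2 or 3. Without PBS replicate 4 or doxorubicin replicate 2 the complex I falls were 10 and 12, and they were 0 without the slide block, with the Esr1 covariate, or without PBS replicate 2, PBS replicate 3 or doxorubicin replicate 3, and 1 without doxorubicin replicate 4.

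In the tricarboxylic acid cycle 7 of 25 fell (median -0.37): Dlat, a core subunit of pyruvate dehydrogenase, from 5.36, 5.11 and 5.23 to 4.57, 3.93 and 4.27 (50.8%), Cs, citrate synthase, to 61.8%, Pdhx to 53.3% and Idh3a to 66.5%. Of glycolysis and glycogen genes 7 of 28 fell and 1 rose (median -0.43). Pgam2, the muscle phosphoglycerate mutase, fell to 44.9% and Pgam1 to 61.7%, whereas Pfkfb3, which makes the activator of phosphofructokinase, read -1.28, -2.08 and -0.15 in PBS and 0.66, 1.22 and 1.38 after doxorubicin, a 4.79-fold rise (adjusted p = 0.0089). For fatty acid uptake and oxidation 1 of 33 rose and 2 fell (6.06%, beside 7.89% of all genes), Hadh to 58.5% and Fitm2, a lipid droplet protein, to 64.9%, at a list median of -0.05, and Fitm1 differed by -0.85 ± 0.25 (adjusted p = 0.0513). The 7 falls in the tricarboxylic acid cycle were 3 without the block or with the Esr1 covariate and 1 without doxorubicin replicate 3, and the 7 in glycolysis were 2, 2 and 0. Both were 0 without either PBS replicate 2 or 3.

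Genes of conduction and contraction had falls and 0 rises. For calcium handling and conduction 12 of 37 fell (median -0.49). Kcnd2, a channel of the transient outward potassium current, read 2.85, 2.60 and 2.56 in PBS and 1.60, 0.43 and 0.95 after doxorubicin, 31.2% of PBS (adjusted p = 0.0121). Casq2, which buffers calcium in the sarcoplasmic reticulum, fell to 43.9%, from 6.76, 6.65 and 6.61 to 5.84, 5.13 and 5.49. Kcnq1, of the slow delayed rectifier, fell to 46.4%, Camk2a to 49.0% and the ryanodine receptor Ryr2 to 57.4%. Of 32 sarcomere genes 4 fell (12.5%, beside 7.89% of all genes), with a median of -0.30. Fhl2 fell from 9.47, 9.32 and 9.11 to 8.50, 7.61 and 8.13 (42.9%). Actc1, cardiac actin, fell to 52.6%, and Unc45b, the myosin chaperone, to 71.7%. Titin, Ttn, fell with overlap. Ckm, the muscle creatine kinase and a cardiomyocyte marker, fell to 57.2% with overlap. Myh6, the main adult myosin heavy chain of mouse ventricle, differed by -0.28 ± 0.21 (adjusted p = 0.388). The 4 falls of sarcomere genes were 1 without the block, with the Esr1 covariate or without doxorubicin replicate 3, and 0 without either PBS replicate 2 or 3. The 12 falls of calcium genes were 2 without the block, 4 with the Esr1 covariate, 0 without either PBS replicate 2 or 3 and 1 without doxorubicin replicate 3.

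Of 20 measured fetal and stress genes, which stressed hearts often switch on, 2 rose and 0 fell (median 0.19). The rises are 10%, beside 5.54% of all genes. Myh7, the fetal myosin, read 8.37, 8.26 and 3.26 in PBS and 10.02, 10.29 and 9.62 after doxorubicin. The groups did not overlap, but PBS replicate 4 was 5 log2 units below its fellows, and the difference of 3.35 ± 1.24 had an adjusted p of 0.0968. The natriuretic peptides Nppa (5.95, 5.94 and 6.88 against 5.76, 7.38 and 7.95) and Nppb (6.67, 6.48 and 5.42 against 5.63, 6.51 and 7.10) overlapped, with adjusted p of 0.217 and 0.782, and the stretch-responsive Ankrd1 differed by 1.12 ± 0.43 (adjusted p = 0.104). The rises were Ctgf, a matricellular protein, 3.99-fold from 5.01, 4.55 and 4.13 to 6.01, 6.63 and 7.05 (adjusted p = 0.0169), and Tnni1, slow skeletal troponin I, which was below background in PBS and above it on 2 doxorubicin arrays. Among cardiac transcription factors 5 of 31 fell (16.1%) and 2 rose (6.45%, beside 5.54% of all genes), with a median of -0.21. Srf fell to 67.9%, Smyd1 to 68.7%, Rxrg to 50.1% and Tead1 to 49.3%, the last fitted without doxorubicin replicate 4, whose spot was an outlier. A filter that asks for detection on all 12 arrays drops this Tead1 probe. Another probe then stands for the gene, and its difference was 0.03. The 5 falls were 1 without the block, 4 with the Esr1 covariate, 0 without either PBS replicate 2 or 3 and 1 without doxorubicin replicate 3. Of 28 secreted ligands and stress factors 3 rose and 4 fell: Bmp4 rose 3.33-fold, while Vegfa, read at 5.09, 4.94 and 4.42 in PBS and 3.89, 3.45 and 3.74 after doxorubicin, fell to 45.9%, Inha to 60.3% and Apln as above. The 4 falls of this list were 2 without the block, 1 with the Esr1 covariate and 0 without PBS replicate 2, PBS replicate 3 or doxorubicin replicate 3. Its 3 rises were 2 without the block and 0 without either PBS replicate 2 or 3.

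Among 30 collagen and matrix genes 6 rose and 1 fell. The fall was Serpinh1, the chaperone HSP47 that folds procollagen (probe at chr7:106493971-106494030, mm9): 4.71, 4.57 and 4.35 in PBS and 3.15, 3.02 and 3.04 after doxorubicin, 36.1% of PBS (difference -1.47 ± 0.17, adjusted p = 0.0087). Within each group the arrays lay close together, and no PBS array came near a doxorubicin array. Mmp3, stromelysin, was below background in PBS and at least 6.85-fold higher, reading -2.64, 0.90 and -0.59. Thbs2 rose with overlap, from -5.09, -4.36 and -1.96 to -2.01, -0.09 and 0.59, and Timp3 rose 2.91-fold with overlap. The 6 rises were 1 without the slide block, 2 with the Esr1 covariate, 1 without PBS replicate 2 and 2 without either PBS replicate 3 or doxorubicin replicate 3, with 1 fall under each.

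Of genes that transport or reduce anthracyclines, 8 of 24 rose and 2 fell (33.3% and 8.33%, beside 5.54% and 7.89% of all genes, median 0.32). The P-glycoprotein pumps, which expel doxorubicin from cells, rose: Abcb1a from -1.71, -1.77 and 0.36 to 0.78, 1.20 and 1.61 (4.71-fold, adjusted p = 0.00992) and Abcb1b from -2.87, -2.87 and -1.05 to -0.43, 0.15 and 0.28 (4.79-fold, adjusted p = 0.00981). PBS replicate 4 was the highest PBS array for both. Aldh1a1 rose 3.70-fold. Cyp1a1, the cytochrome that the aryl hydrocarbon receptor induces, read -2.82, -2.85 and -3.91 in PBS and was below background on all doxorubicin arrays, at least 1.61-fold lower (adjusted p = 0.00432). Antioxidant genes had 7 of 34 higher and 0 lower at a median of -0.01. Gpx3, plasma glutathione peroxidase, rose 5.51-fold, from 3.26, 3.67 and 3.22 to 5.25, 6.42 and 5.86, and the glutathione transferases Gsta3 and Gstm1 rose 6.33-fold and 2.09-fold. Nqo1, a quinone reductase that NRF2 controls, rose 1.61-fold. The 7 antioxidant rises were 1 without the block, 2 with the Esr1 covariate, 0 without PBS replicate 2 and 1 without either PBS replicate 3 or doxorubicin replicate 3. The 8 rises of pumps and reductases were 0 without the block, 4 with the Esr1 covariate and 2 without either PBS replicate 2 or 3.

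Iron and haem genes had 6 of 29 lower (20.7%) and 2 higher (6.9%), with a median of -0.20. Over all genes these shares were 7.89% and 5.54%. Alas1, the first enzyme of haem synthesis in non-erythroid cells, read 7.35, 7.03 and 6.86 in PBS and 5.34, 5.17 and 5.08 after doxorubicin, 27.1% of PBS (difference -1.88 ± 0.26, adjusted p = 0.00985). The groups were more than 1 log2 unit apart. Cpox, a later enzyme of that pathway, fell to 63.9%. Beside the fall of Tfrc, Cp, the ferroxidase ceruloplasmin, rose 3.11-fold, from 2.82, 2.79 and 2.87 to 4.31, 4.73 and 4.35. Hmox1, which degrades haem, read -0.80, -0.85 and -0.43 against 2.30, 1.45 and 2.06. The groups did not overlap, but its SE over all groups was 0.99 and its adjusted p was 0.101. The 6 falls were 3 without the block, 2 with the Esr1 covariate and 1 without either PBS replicate 2 or 3.

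Heat shock proteins fell in 7 of 23 and rose in 0 (median -0.43): Hsph1 from 3.92, 3.74 and 3.75 to 2.57, 2.63 and 2.51 (42.6%), Fkbp4, a co-chaperone of steroid receptors, to 41.2%, Dnajb1 to 58.8% and Dnajb5 to 52.8%. In the list of ubiquitin ligases, FoxO targets and autophagy, 2 of 32 rose (6.25%) and 1 fell (3.12%), with a median of 0. These shares lie near or below the 5.54% and 7.89% of all genes. The calls were Ctsl, the lysosomal protease cathepsin L (2.01-fold), Bnip3, a mitophagy receptor (2.42-fold), and Ulk1, the kinase that starts autophagy, which fell to 70.9%. All were lost without the slide block, with the Esr1 covariate, or without PBS replicate 2, PBS replicate 3 or doxorubicin replicate 3. Of 69 cytosolic ribosomal proteins 1 rose (1.45%), Rpl3 (1.71-fold), at a median of 0.04. Of 41 genes of RNA polymerase I and ribosome assembly 2 rose (4.88%, beside 5.54% of all genes), Taf1b (1.82-fold) and Nop14 (1.54-fold). In this list 5 fell (12.2%, beside 7.89%), among them the initiation factor Rrn3 (65.2% of PBS) and Utp20 (69.2%). The 7 falls of heat shock genes were 2 without the slide block, 3 with the Esr1 covariate, 0 without either PBS replicate 2 or 3 and 2 without doxorubicin replicate 3. The 5 falls of ribosome assembly were 1 with the Esr1 covariate and 0 under the others of these settings.

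Cell cycle genes fell in 8 of 30 and rose in 1 (median -0.46). Rrm2, the regulatory subunit of ribonucleotide reductase, read -0.43, -0.54 and -0.39 in PBS and -2.32, -1.79 and -1.78 after doxorubicin (35.2%, adjusted p = 0.0145). Ccne1, cyclin E1, fell to 45.4% and Plk1 to 49.6%, and Ccnb2, a mitotic cyclin, was at least 2.64-fold lower, whereas Mcm7, of the replicative helicase, rose 1.58-fold. The 8 falls were 2 without the slide block, 3 with the Esr1 covariate, 0 without either PBS replicate 2 or 3 and 2 without doxorubicin replicate 3. DNA damage signalling and repair had 1 of 34 rise (2.94%) and 2 fall (5.88%), below the 5.54% and 7.89% of all genes. The rise was Prkdc, the kinase of end joining (1.76-fold, from -0.61, -0.71 and -0.57 to 0.18, 0.36 and 0.02). The falls were the DNA ligases Lig3 (71.0% of PBS) and Lig4 (74.4%). Without the slide block 1 rise and 0 falls were left. Both counts were 0 with the Esr1 covariate or without PBS replicate 2, PBS replicate 3 or doxorubicin replicate 3. Of 31 apoptosis genes 5 rose and 1 fell (median 0.24): beside Bbc3, the BH3-only gene Bmf rose 1.90-fold and Casp4 4.29-fold with overlap, and the pore-forming Bak1 fell to 59.0%. The 5 rises were 1 without the block, 2 with the Esr1 covariate and 0 without PBS replicate 2, PBS replicate 3 or doxorubicin replicate 3. Glucocorticoid-responsive and fasting genes rose in 6 of 26 and fell in 1 (median 0.47), led by Cebpd (4.65-fold, from 1.67, 1.22 and 3.36 to 3.59, 4.45 and 4.85), with Lpin1, of lipid synthesis, down to 49.8%. The 6 rises were 2 without the block, 4 with the Esr1 covariate, 1 without either PBS replicate 2 or 3 and 2 without doxorubicin replicate 3. In the circadian clock list 1 of 17 fell (5.88%, beside 7.89% of all genes), Hlf to 50.1% of PBS, and Dbp differed by -1.19 ± 0.40 (adjusted p = 0.0746). Of 30 genes of ErbB, insulin and insulin-like growth factor signalling, 3 rose and 3 fell. These are 10% each, beside 5.54% and 7.89% of all genes, at a median of 0. Along with Irs2, the ErbB inhibitor Errfi1 rose 2.53-fold, while Grb14, an inhibitor of the insulin receptor, fell to 53.1%. Both counts were 0 without either PBS replicate 2 or 3, and without doxorubicin replicate 3 they were 1 and 0.

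None of the 5 measured topoisomerase genes passed the test. Top2b, the drug's target in cardiomyocytes, read 3.63, 3.35 and 3.65 in PBS and 3.41, 3.25 and 3.29 after doxorubicin, a difference of -0.22 ± 0.20 (adjusted p = 0.493). Top1, the type I enzyme, differed by -0.32 ± 0.20 (adjusted p = 0.303), Top3b by 0.46 ± 0.20 (adjusted p = 0.144) and mitochondrial Top1mt by 0.18 ± 0.12 (adjusted p = 0.342). Top2a was not well above background on any of the 6 arrays and was not tested.

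**Figure D4:**
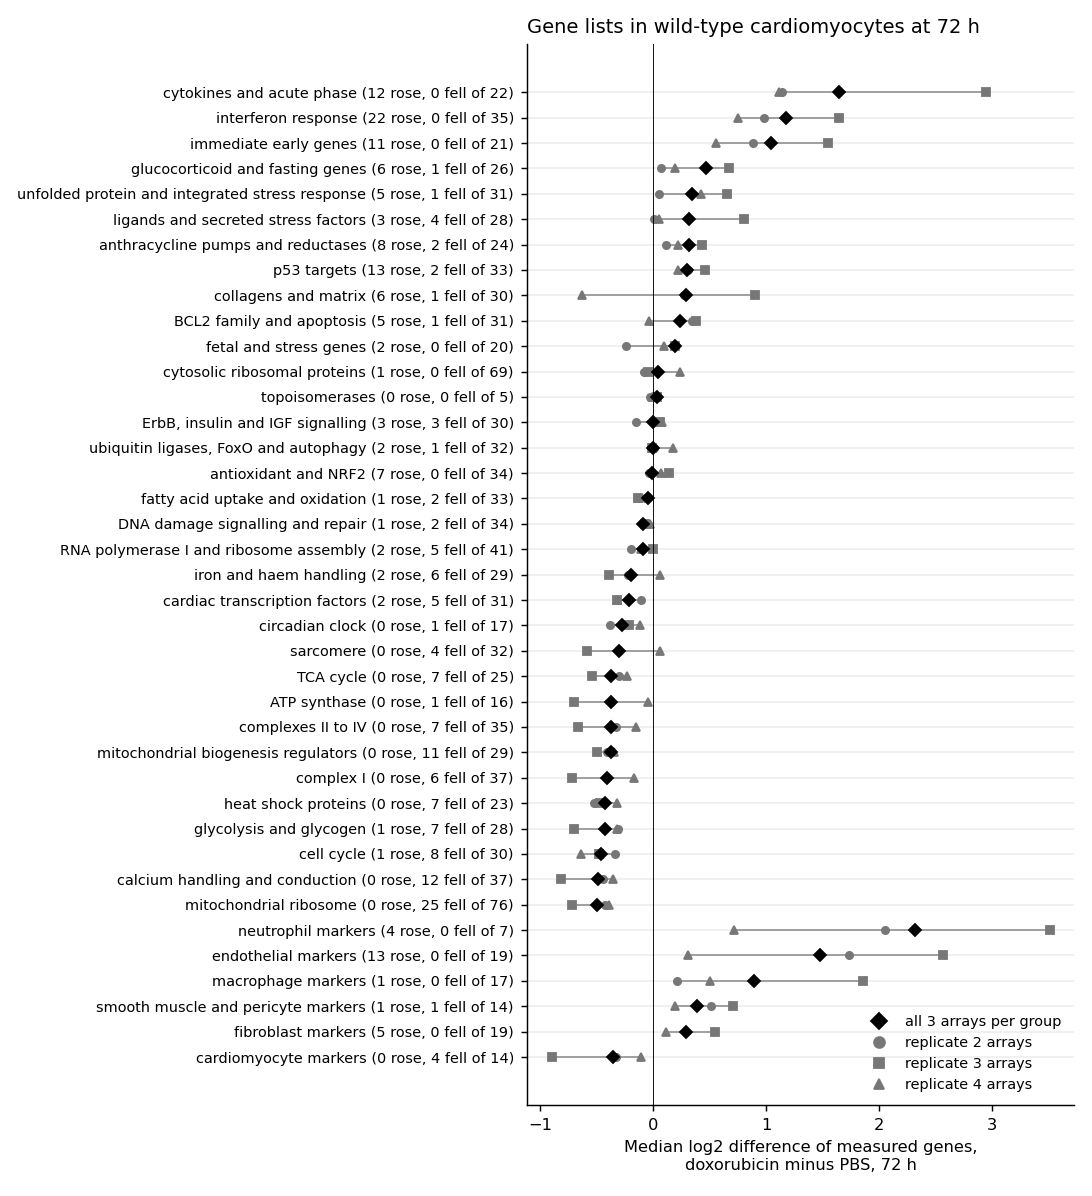
Median log2 difference between doxorubicin and PBS at 72 h (horizontal axis) of each gene list, over all arrays (black diamond) and within the arrays of 1 replicate number (grey), with marker lists at the bottom and counts of called genes beside each name. The medians spread by replicate, and those of endothelial markers are 1.73, 2.57 and 0.31 for replicates 2, 3 and 4.

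The response of wild-type cardiomyocytes was set beside that of Top2b-deleted ones at the same time. There, with the slide as block, 0 of 19670 genes passed in limma, 752 (3.82%) had an unadjusted p under 0.05, and the smallest adjusted p was 0.272. The wild-type change was larger in size than the Top2b-deleted change for 2633 of the 2641 genes called in wild type, which were chosen for their change in wild type, and 2156 of them (81.6%) had the same sign in both. The test of the difference of responses also called 0 genes, with 2547 (12.9%) at an unadjusted p under 0.05 and a smallest adjusted p of 0.138. At this number of arrays no single gene was shown to respond differently by genotype. List medians in Top2b-deleted cells were 0.07 for interferon genes, 0.03 for p53 targets, -0.24 for immediate early genes and -0.18 for the mitochondrial ribosome, beside 1.18, 0.30, 1.04 and -0.50 in wild type. In Top2b-deleted cells Apln differed by -1.40 and Apod by 0.46.

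Against 16 h, the difference of the wild-type responses was tested on all 24 arrays, and 1503 of 20049 genes passed (7.5%): the 72 h response was higher for 621 (3.1%) and lower for 882 (4.4%). At 16 h itself 5486 genes were called (27.4%). In that earlier set the genotype label of 4 arrays conflicts with their titles, and the times were run on different slides. Of p53 targets 14 had a lower response at 72 h and 0 a higher one: Mdm2 differed by -0.42 at 72 h and 1.03 at 16 h, Bax by 0.30 and 1.56, and Gadd45a by -1.0 and 1.5. For the interferon list 3 were lower at 72 h and the medians were 1.18 and 1.96. Immediate early genes went the other way for 3 members, Nr4a1 differing by 2.16 at 72 h and -1.58 at 16 h. The mitochondrial ribosome, with medians of -0.50 and -0.24, had 3 members with a lower response at 72 h, and complex I, with medians of -0.41 and -0.14, had 0 members whose difference between times passed.

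**Figure D5:**
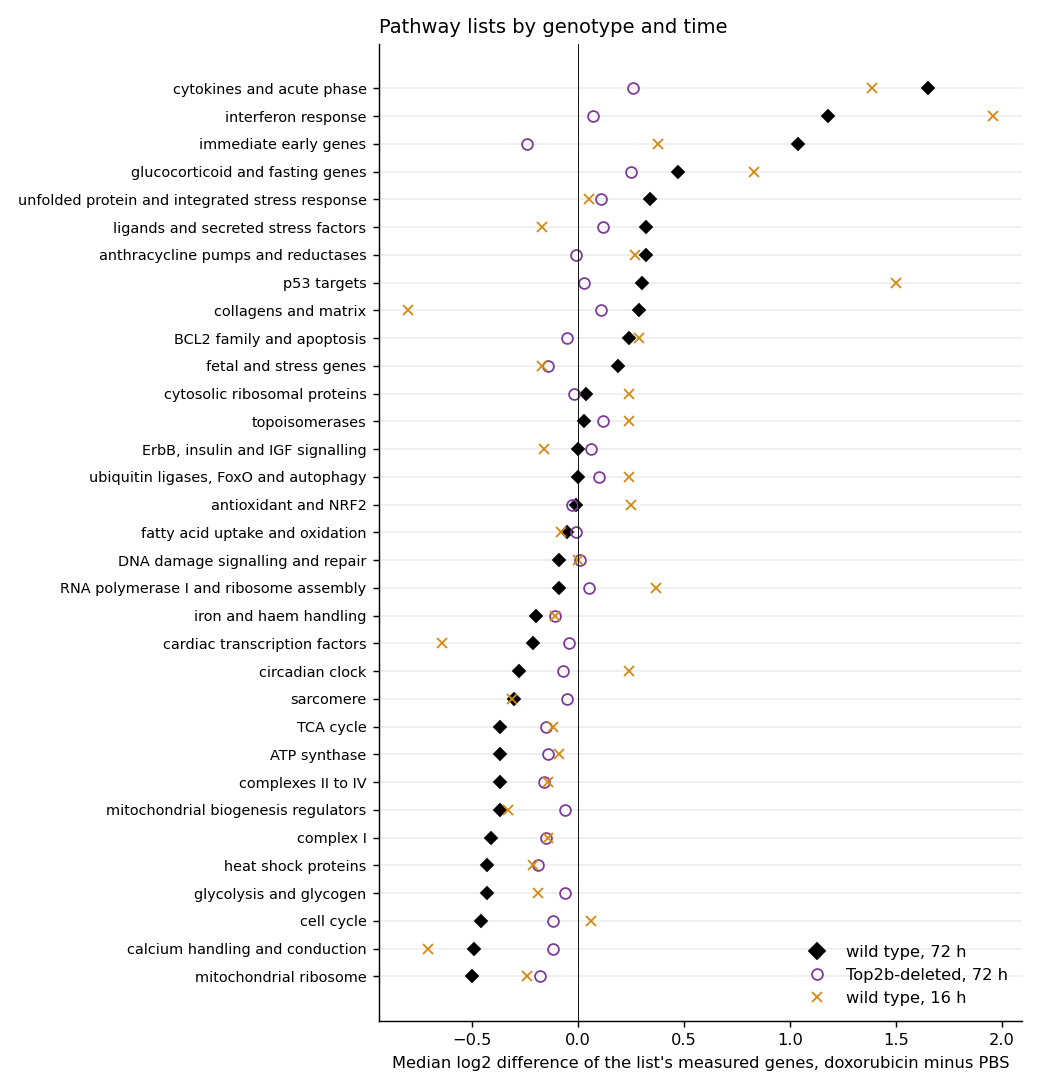
Median log2 difference between doxorubicin and PBS (horizontal axis) of each pathway list in wild type at 72 h (black diamond), Top2b-deleted at 72 h (open purple circle) and wild type at 16 h (orange cross). The p53 targets lie at 0.30, 0.03 and 1.5, and immediate early genes at 1.04, -0.24 and 0.38.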

How the data were processed

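RNA was hybridised to Agilent one-colour mouse arrays. Per the file headers, Feature Extraction 10.7.3.1 made the deposited processed intensity of each spot, background-subtracted, on a design built on mm9, and its name stands in the submitters' processing notes. The deposited value table holds a ratio, found by comparison to be that signal over each array's median. Here levels were log2 of the processed intensity minus the array's 75th percentile. Outlier spots were left out. Probes had to be detected above background on each of the 3 arrays of some group, and the brightest kept probe stood for its gene. limma 3.58.1 (R 4.3.3) fitted the 4 groups of 72 h on 12 arrays with the slide as a block and Benjamini-Hochberg adjustment over all genes. Responses at 72 h and 16 h were compared in 1 fit on 24 arrays. The named genes were the 15 largest non-overlapping rises and falls, up to 5 bounded genes per direction, the 4 members with the smallest adjusted p in each list, 18 genes fixed by name, and the 6 largest differences of response per direction. The members and lists were chosen with earlier results of these data known. Scripts were tested on simulated data. Alternatives covered background, scaling, filters, probes, blocks, covariates and left-out arrays. The number of arrays limits the precision. Exon and UTR positions of probes were not analysed here. Some genes that the rule names are not reported here.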

Additional observations from a re-analysis of the deposited data

Results flagged for a closer look

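The wild-type response to doxorubicin differed between 72 h and 16 h for 1503 genes, by the test of that difference (limma, adjusted p under 0.05), and 38 of the 219 named genes were among them. Values here are the 72 h response minus the 16 h response in log2 units. The 72 h response was lower for 19. Of these, the p53 targets were Trp53inp1 (-2.25), Gadd45a (-2.5), Bbc3 (-1.68), Mdm2 (-1.45) and Bax (-1.26). Cell cycle genes with a lower response were Rrm2 (-1.91), Ccne1 (-2) and Mcm7 (-0.89). The remaining lower responses were those of Ulk1 (-0.73), Usp2 (-1.47), Hlf (-1.14), Utp20 (-1.33), Lig3 (-0.77), Spc25 (-4.23), Zbtb16 (-3.53), Pdxp (-3.24), Fkbp5 (-3.21), Gfra2 (-3.14) and Fzd9 (-2.84). The 72 h response was higher for 19 named genes, among them the immediate early genes Atf3 (2.82), Nr4a1 (3.74) and Egr2 (3.35). Further higher responses were those of C4b (2.01), C3 (2.12), Slc26a10 (4.13), Unc45b (0.85), Abcb1a (2.14), Fgf21 (4.36), Taf1b (1.52), Prkdc (1.38), Srf (1.03), Tek (2.65), Nppb (4.41), H19 (4.97), Adam19 (3.18), Nrp1 (3.04) and Colec11 (2.96). At 16 h the genotype label of 4 arrays conflicts with the titles that were used here, and arrays of the 2 times lie on different slides, so time and slide cannot be told apart.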

How the results depend on the processing

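The 2641 calls at 72 h became 530 without the slide block, 162 with the wild-type arrays alone, 784 within slide 1, 525 of 34844 genes with no filter on dim probes, 1640 with Y-linked transcripts as a covariate and 1460 with only the arrays without them. Alternatives added after the data were seen gave 1552 without PBS replicate 4 and the slide block, 963 with the Esr1 covariate, and 214 with only the arrays that carry the Esr1 signal (185 higher and 29 lower), a setting with a single doxorubicin array in wild type, assumed to vary as the other groups do. The cause of these losses was not tested. Normexp background, quantile normalization, scaling to the median, a filter on all 12 arrays, averaged probes and a robust trended fit gave 2295 to 3350. Left-out replicates gave 0 to 2846 for wild type, 0 to 0 for Top2b-deleted cells, 0 to 2 for the difference between genotypes (3 where the slide block was dropped as well) and 767 to 3049 for that between times. The difference between genotypes gave 1 gene with only the arrays without Y-linked transcripts, 1 with only the Esr1-signal arrays and 3 without PBS replicate 4 and the slide block. The difference between times gave 223 with the wild-type arrays alone and 774 with no filter. The replicate numbers were not taken to pair the wild-type samples compared, whose same-number deviations correlated at 0.48, 0 and 0.42 for replicates 2, 3 and 4, although other pairs of groups correlated throughout, such as Top2b-deleted PBS and doxorubicin at 0.42, 0.27 and 0.73. A replicate block gave 3289 calls, of which 2556 were shared. List medians changed sign for fetal and stress genes (-0.1 within slide 1 and without replicate 4, -0.24 with only Esr1-signal arrays, up to 0.4 without replicate 2), fatty acid genes (0.07 after quantile normalization, 0.01 with the Esr1 covariate, -0.08 to 0 with arrays left out), antioxidant genes (0.12 after quantile normalization, 0.1 under the stricter filter, 0.14 without doxorubicin replicate 2, -0.07 to 0.15 with arrays left out), ubiquitin and autophagy genes (-0.1 after median scaling), neutrophil markers (-0.06 under the stricter filter, which leaves 3 of them), and, with only Esr1-signal arrays, the unfolded protein response (-0.02) and DNA repair (0.06). Atrial markers went from 0.77 to -0.19 with only Esr1-signal arrays, cytosolic ribosomal proteins from 0.04 to as low as -0.07, and topoisomerases from 0.03 to as low as -0.08. The difference for Tead1 was 0.03 under the stricter filter, where another of its probes is used. In simulated arrays, 200 genes among 19577 were changed in wild-type doxorubicin. The fit against PBS recovered 6.06% of their log2 changes of 0.5, 49.3% of 1 and 82.1% of 2. Far fewer genes were changed there than the 2641 called here. The adjusted threshold depends on that number, so these rates do not carry over to the real arrays.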
